A study of Mus musculus with 24 samples.

Results

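The 10 genes described here encode 2 metallothioneins (Mt1, Mt2), the transcription factor that senses zinc (Mtf1), 2 zinc transporters (Slc30a1, Slc39a14), the glucocorticoid receptor (Nr3c1) and 4 genes known to be induced by glucocorticoids (Fkbp5, Tsc22d3, Zbtb16, Cebpd). They were chosen by symbol, with earlier results of these data known, and were matched to 10 of the 55385 genes in the count files. Which values led to the choice is not recorded, so their differences between groups, and the adjusted p-values given with them, describe these libraries and are not independent tests. All 10 were among the 17803 genes that passed the filter on low counts.

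RNA was sequenced from gastrocnemius, a calf muscle, of female C57BL/6J mice, in 6 groups of 4 libraries, each from a separate mouse in the GFP and AAV-Kl groups. Young GFP mice were 3 to 6 months old, old GFP and old AAV-Kl mice 21 to 24 months, and oldest-old GFP and oldest-old AAV-Kl mice 27 to 29 months. The age of the young sham mice is not stated separately and was taken to be the study's range for young mice. GFP mice received an adeno-associated virus (AAV8) carrying green fluorescent protein, and AAV-Kl mice the same vector carrying Klotho (Kl), a circulating hormone made mainly in the kidney. Both transgenes were driven by the liver promoter LP-1 and given by tail vein at 3e8 vector genomes per mouse, 14 days before the muscle was taken. The sham procedure is not described in the sources used here, and sham mice carried no stated transgene.

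Metallothioneins are small cysteine-rich proteins that bind zinc and copper, and their genes are switched on by MTF1 when free zinc rises and by glucocorticoids during stress. MTF1 also drives Slc30a1, which exports zinc from the cell, whereas Slc39a14 imports zinc and iron and is induced by interleukin-6. Glucocorticoids, released by the adrenal gland in a daily rhythm and under stress, act through the receptor encoded by Nr3c1, and in muscle they promote protein breakdown.

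Promoter sequences are shown for the metallothioneins and Slc30a1 because these are the known MTF1 targets among the 10 genes. Each is the 250 bases before the start site in the RefSeq promoter table (GRCm38.p6, plus strand), written 5′ to 3′. Capitals mark the core of the metal response element, the sequence bound by MTF1, searched as TGCACNC or TGCGCNC on both strands with no overlap with the other motif searched. The windows are chr8:94178839-94179088 for Mt1, chr8:94172368-94172617 for Mt2 and chr1:191906531-191906780 for Slc30a1.
Mt1: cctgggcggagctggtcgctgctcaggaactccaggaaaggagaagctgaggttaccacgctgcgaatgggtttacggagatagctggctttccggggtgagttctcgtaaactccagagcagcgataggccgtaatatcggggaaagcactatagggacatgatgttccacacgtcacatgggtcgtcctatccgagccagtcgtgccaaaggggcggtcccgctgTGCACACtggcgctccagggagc
Mt2: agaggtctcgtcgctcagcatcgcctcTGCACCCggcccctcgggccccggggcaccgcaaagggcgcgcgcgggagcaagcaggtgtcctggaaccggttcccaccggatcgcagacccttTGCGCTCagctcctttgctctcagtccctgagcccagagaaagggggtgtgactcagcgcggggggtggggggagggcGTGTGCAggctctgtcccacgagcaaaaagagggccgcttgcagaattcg
Slc30a1: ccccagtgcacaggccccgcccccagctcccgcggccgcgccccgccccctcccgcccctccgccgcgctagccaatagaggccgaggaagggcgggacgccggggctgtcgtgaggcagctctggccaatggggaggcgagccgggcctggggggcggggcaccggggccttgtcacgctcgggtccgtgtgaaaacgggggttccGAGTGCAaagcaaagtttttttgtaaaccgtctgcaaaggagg
Mt2 held 3 cores, while Mt1 and Slc30a1 held 1 each. At least 1 core was present in 21.4% of 32851 promoter windows of this length, and 2 or more in 5.17%. The annotation used for the counts also has Mt1 transcripts that start 122 and 152 bases after the table's start, and the 250 bases before each of those starts held 5 cores, a number reached by 0.0822% of promoter windows. The windows of Mtf1, Fkbp5 and Tsc22d3 held none. AGAACA, a core of the glucocorticoid response element, was found once in the Mtf1 window and once in 1 of the 3 Tsc22d3 windows, in none of the Mt1, Mt2, Slc30a1 and Fkbp5 windows, and in 16.1% of all promoter windows. No promoter is shown for Slc39a14, Zbtb16, Nr3c1 and Cebpd.

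Each library held 36415886 to 59733985 reads on genes. Levels are given as CPM, counts scaled to 1000000 reads of TMM-adjusted library size. Markers of skeletal muscle fibres summed to between 117000 and 179000 CPM in every library. Libraries differed in RNA of other tissues: the 19 liver markers summed to 1260 CPM in the highest old GFP library (replicate 1) and to 28.9 to 130 CPM in young GFP mice, where Apob, Fgg, Plg, Cps1 and Ambp had no reads in any library. The 10 keratinocyte markers reached 427 CPM in young GFP mice, with replicates 1 and 3 the highest. Young sham and young GFP libraries did not overlap in the mean log2 CPM of the macrophage markers (2.84 to 3.74 against 2.18 to 2.81) or of the endothelial markers (4.86 to 5.11 against 4.53 to 4.79). Oldest-old GFP libraries did not overlap with young GFP libraries in these markers either (3.05 to 3.52 for macrophage and 5.07 to 5.30 for endothelial markers). The same held for the neutrophil (-2.15 to 0.53 against -3.35 to -2.53 in young GFP) and erythroid markers (2.36 to 5.69 against 1.75 to 2.14). The fibroblast markers were lower in oldest-old GFP, also without overlap (4.91 to 6.29 against 6.39 to 6.96). Old GFP libraries did not overlap with young GFP libraries in the neutrophil (-1.82 to -0.77) and erythroid markers (2.59 to 2.83). Fits with the liver marker level as a covariate and without young GFP replicates 1 and 3 are given beside results of the 10 genes. The part of macrophage, endothelial, neutrophil, erythroid and fibroblast markers was not tested. In whole muscle, fewer cells of a type and less RNA per cell cannot be told apart.

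Per kilobase of exon, the scale on which different genes can be compared, the mean level over the 24 libraries was highest for Tsc22d3 (47.7 CPM per kb), followed by Mt1 (19.2), Nr3c1 (18.4), Zbtb16 (11.1), Cebpd (7.84) and Fkbp5 (5.15). Mtf1 (3.03), Slc30a1 (1.39) and Slc39a14 (1.36) were lower. Mt2 stood at 1.31 CPM per kb in these counts, which leave out most of its reads as described below. With both strand columns summed it stood at 31.8 CPM per kb, between Tsc22d3 (42.6) and Mt1 (17.2) in the same counting. The genes also differed in how much they varied between mice. The SD of log2 CPM over the 24 libraries was 1.09 for Mt2, 0.93 for Fkbp5, 0.86 for Mt1 and 0.81 for Cebpd, and 0.07 for Mtf1.

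**Figure D1:**
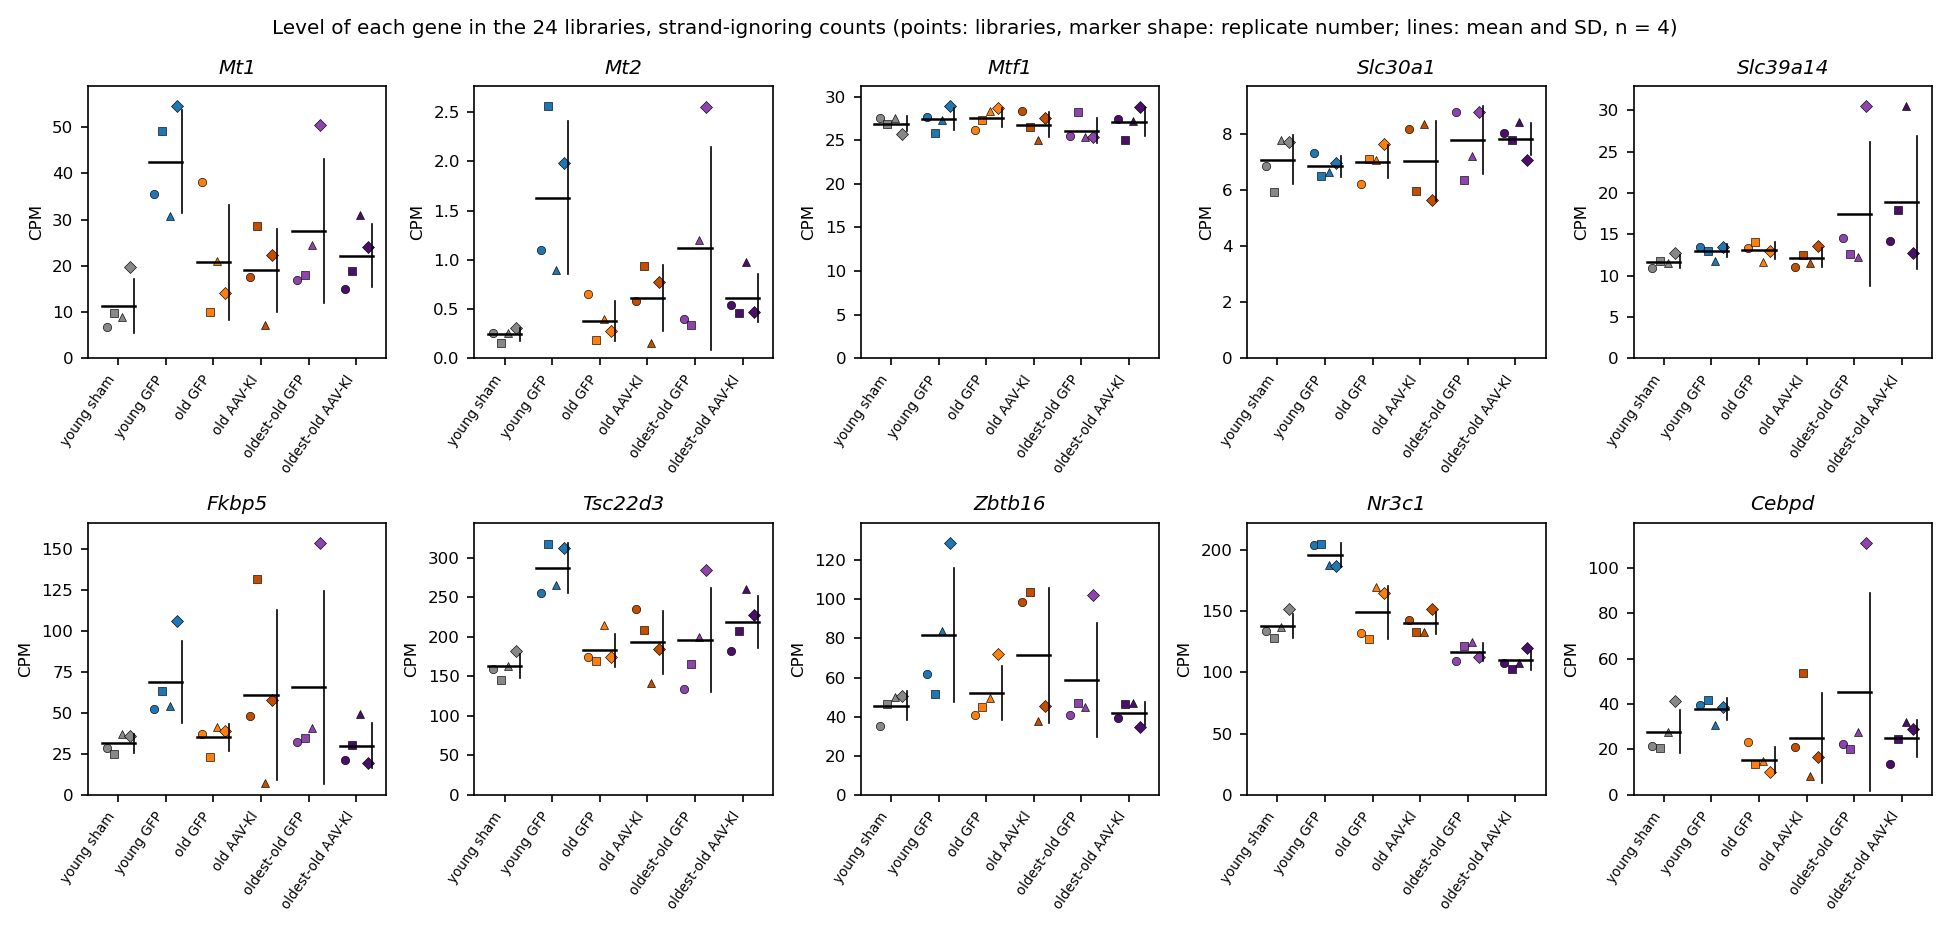
Level in CPM (vertical axis, linear, from 0) of each of the 10 genes in the 24 libraries, by group, where points are libraries, marker shapes are replicate numbers, and lines are the mean and SD of 4 libraries. Young GFP libraries stand above all young sham libraries for Mt1, Mt2, Fkbp5, Tsc22d3, Zbtb16 and Nr3c1, Mtf1 stays between 25 and 28.9 CPM, and 1 oldest-old GFP library (replicate 4) is far above its group for Slc39a14, Fkbp5, Zbtb16 and Cebpd.

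The comparison of young GFP with young sham mice shows what differed between vector-injected and sham young muscle. The metallothionein gene Mt2, the glucocorticoid target Tsc22d3 and the receptor gene Nr3c1 were higher in young GFP mice. Mt1, Mtf1, both zinc transporters, Fkbp5, Zbtb16 and Cebpd had adjusted p-values above 0.05 (edgeR's quasi-likelihood test with Benjamini-Hochberg adjustment over all genes tested, which applies to every adjusted p below unless another test is named). Over all genes, 0.472% passed that threshold. The median log2 fold change was 0.66 over the 10 genes and -0.03 over all genes tested.

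Mt1 (chr8:94179082-94180327, GRCm38, plus strand), a metallothionein found in most tissues, stood at 6.7, 9.72, 8.9 and 19.8 CPM in young sham mice and at 35.6, 49.2, 30.8 and 54.5 CPM in young GFP mice. Every young GFP library was above every sham library. The difference was 3.76-fold (log2 fold change 1.91, SE 0.46), with an adjusted p of 0.0635. That p was 0.00649 with DESeq2, 0.0374 with only these 2 groups in the fit and 0.0357 without young sham replicate 4, the highest sham library, so the call depended on the setting.

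Mt2 (chr8:94172664-94173568, plus strand), the neighbouring metallothionein, was counted at 0.258, 0.155, 0.256 and 0.306 CPM in young sham and at 1.1, 2.56, 0.895 and 1.98 CPM in young GFP mice. The groups did not overlap, and the difference was 6.63-fold (log2 fold change 2.73, SE 0.61, adjusted p = 0.0455). These values rest on 8 to 16 reads per sham library and 47 to 106 per young GFP library. With 1 library left out at a time, only the fit without young GFP replicate 3 kept the call, and the adjusted p reached 0.197 without young sham replicate 2. The log2 fold change was 2.92 with the liver covariate (adjusted p = 0.0966) and 3.24 without young GFP replicates 1 and 3 (adjusted p = 0.0541).

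The Mt2 level depends on how reads are assigned to genes. Of the 588 exon bases of Mt2, 432 (73.5%) are overlapped by Gm45774, an antisense gene, and the counts without regard to strand leave out reads that fall on 2 genes. When the 2 strand columns of the files were summed, so that these reads were kept, Mt2 reached 2.96, 4.43, 4.85 and 12.5 CPM in young sham and 31.2, 40.9, 28.1 and 46.1 CPM in young GFP mice, and the counts used above held 2.16% to 7.89% of those reads. On this scale the young groups again did not overlap (log2 fold change 2.56, SE 0.53, adjusted p = 0.0327). Because the libraries do not keep strand, reads of Mt2 and of Gm45774 cannot be told apart. No other member shares more than 15% of its exon bases with another gene.

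**Figure D2:**
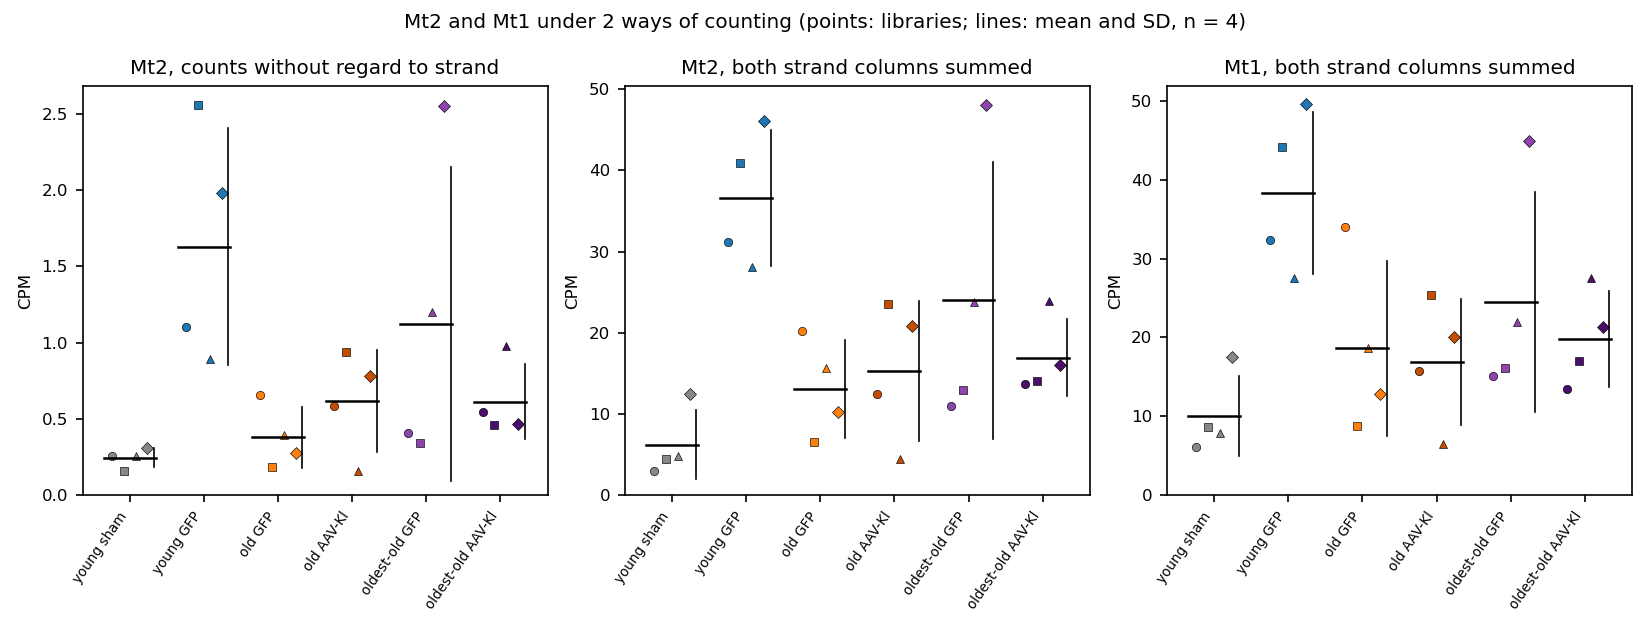
CPM (vertical axes, from 0) by group of Mt2 in the counts without regard to strand (left), of Mt2 with both strand columns summed (middle) and of Mt1 with both strand columns summed (right), where points are libraries and lines are the mean and SD of 4 libraries. Summing raises Mt2 from 1.63 to 36.6 CPM on average in young GFP mice, close to the 38.4 CPM of Mt1, and in both genes young GFP has the highest mean and young sham the lowest.

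Mtf1 (chr4:124802104-124849800, plus strand) lay between 25 and 28.9 CPM in all 24 libraries and differed between the young groups by a log2 fold change of 0.03. Slc30a1 (chr1:191906767-191913247, plus strand), the zinc exporter, ranged from 5.67 to 8.81 CPM over all libraries and differed by -0.05 on the log2 scale. Slc39a14 (chr14:70303469-70351425, minus strand), the importer, differed by 0.14. For these 3 genes the young groups overlapped.

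Nr3c1 (chr18:39410545-39519421, minus strand), the glucocorticoid receptor, was at 134, 128, 137 and 152 CPM in young sham and at 204, 205, 188 and 187 CPM in young GFP mice. All young GFP libraries were higher, by 1.42-fold (log2 fold change 0.51, SE 0.09, adjusted p = 0.0118). The adjusted p was above 0.05 in 1 of the 8 fits that left out a library (0.0537 without young sham replicate 2). The log2 fold change was 0.54 without young GFP replicates 1 and 3, the keratin-rich libraries (adjusted p = 0.0539). With the liver marker level as a covariate it was 0.51 (adjusted p = 0.0574). Over the 24 libraries Nr3c1 had r = -0.80 with the endothelial marker level (-0.48 without group means).

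Tsc22d3 (chrX:140539528-140600659, minus strand), which encodes the anti-inflammatory leucine zipper protein GILZ, was at 159, 145, 163 and 182 CPM in young sham and at 255, 318, 265 and 312 CPM in young GFP mice. The groups did not overlap, and the difference was 1.77-fold (log2 fold change 0.82, SE 0.18, adjusted p = 0.0417). Leaving out a library kept the call only without young GFP replicate 3, and the adjusted p reached 0.176 without young sham replicate 2. The log2 fold change was 0.79 with the liver covariate (adjusted p = 0.153) and 0.99 without young GFP replicates 1 and 3 (adjusted p = 0.0654).

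Fkbp5 (chr17:28399094-28517527, minus strand), a co-chaperone that lowers the hormone affinity of the receptor, was at 28.7, 24.8, 37.3 and 35.8 CPM in young sham and at 52.2, 63.6, 54.4 and 106 CPM in young GFP mice. The groups again did not overlap, although the 2.18-fold difference had an adjusted p of 0.399 (log2 fold change 1.13, SE 0.58). Zbtb16 (chr9:48654297-48836222, minus strand), which encodes the transcriptional repressor PLZF, was at 35.1, 46.5, 50.3 and 50.6 CPM in young sham and at 62.0, 51.6, 83.9 and 129 CPM in young GFP mice. The lowest young GFP library was just above the highest sham library, and the adjusted p was 0.286 (log2 fold change 0.84, SE 0.34). Cebpd (chr16:15887286-15891031, plus strand), a transcription factor of the acute phase response, was at 21.5, 20.7, 27.8 and 41.5 CPM in young sham and at 39.6, 41.8, 30.8 and 38.8 CPM in young GFP mice. Its groups overlapped through young sham replicate 4 (log2 fold change 0.44, SE 0.51, adjusted p = 0.714).

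In all, 6 of the 10 genes did not overlap between young GFP and young sham mice, each higher in young GFP, where 9.76% of all genes tested did not overlap in either direction. Among the 29 glucocorticoid-induced genes listed, all tested, 3 rose and none fell in young GFP mice. Besides Mt2 and Tsc22d3, the third was Bcl6, a transcriptional repressor, which was 2.42-fold higher (log2 fold change 1.27, SE 0.25, adjusted p = 0.0315). Bcl6 overlapped between the groups and kept its call in 3 of the 8 fits with a library left out. The median log2 fold change of the list was 0.41, and 0.33 over its 23 genes that are not among the 10. Of those 23 genes, 7 had an unadjusted p under 0.05 and DESeq2 called 3. Over all 17803 genes tested these were 2389 and 290. Of 17 clock genes, 1 rose: Bhlhe41, a repressor of clock transcription, was 1.88-fold higher without overlap (log2 fold change 0.91, SE 0.20, adjusted p = 0.0417), a call kept in 2 of 8 fits with a library left out. Of the 17 clock genes, 6 had an unadjusted p under 0.05 and DESeq2 called 3.

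Other genes of metal handling showed no call between the young groups in edgeR: 0 of the 6 zinc exporters, 13 zinc importers, 10 copper genes, 12 iron genes and 13 NRF2 targets tested outside the 10 genes. Of all 17803 genes tested, 2389 had an unadjusted p under 0.05 and DESeq2 called 290. In these lists 3 importers, 3 NRF2 targets and none of the rest had an unadjusted p under 0.05, and DESeq2 called 0. Likewise edgeR called 0 of 12 receptor regulators (2 at an unadjusted p under 0.05, 0 with DESeq2), 0 of 14 FOXO and atrophy genes (3 and 2) and 0 of 14 IL-6 and STAT3 response genes outside the 10 (4 and 0). Mt3, the third metallothionein tested, was not called, and Mt4 was below the filter.

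**Figure D3:**
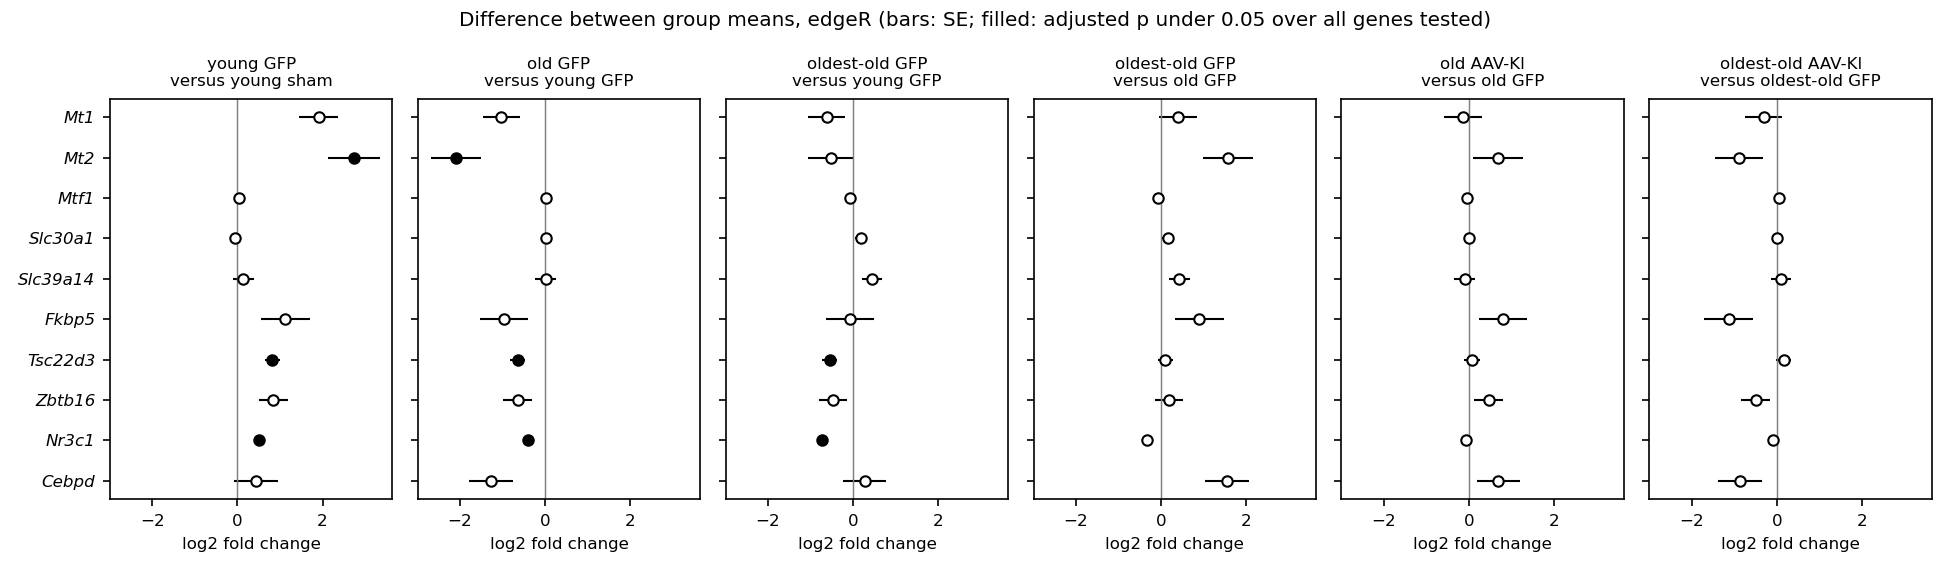
Log2 fold change (horizontal axes) of each gene in the 6 comparisons of 2 groups, with SE bars and filled points where the adjusted p was under 0.05. Filled points stand for Mt2, Tsc22d3 and Nr3c1 in the first 2 panels and for Tsc22d3 and Nr3c1 in the third, and the last 3 panels have none; panels 1 to 3 share the young GFP mice.

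The comparison of old GFP with young GFP mice shows differences with age among vector-injected animals. Mt2, Tsc22d3 and Nr3c1 were lower in old GFP mice and no gene of the 10 was called higher, where 4.7% of all genes tested were called. The median log2 fold change was -0.65 over the 10 genes and 0.0 over all genes. This comparison and the preceding one share the young GFP mice, as does the next, and the Klotho comparisons share the GFP mice of the older groups with the age comparisons, so values side by side are not independent.

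Mt1 was at 38.1, 9.93, 21.1 and 14.2 CPM in old GFP mice, so that replicate 1, the library with the most liver RNA, overlapped with young GFP (log2 fold change -1.03, SE 0.44, adjusted p = 0.205). Mt2 was at 0.653, 0.185, 0.395 and 0.275 CPM, all below the young GFP range (log2 fold change -2.10, SE 0.59, adjusted p = 0.044). With both strand columns summed, Mt2 ranged from 6.48 to 20.2 CPM in old GFP mice and still did not overlap with young GFP, but its log2 fold change was -1.48 and its adjusted p 0.103. The Mt2 call also held in only 1 of the 8 fits with a library left out, the fit without young GFP replicate 3.

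Nr3c1 was at 132, 127, 170 and 165 CPM in old GFP mice, below all young GFP libraries (log2 fold change -0.40, adjusted p = 0.00962). The Nr3c1 call was kept in all 8 fits with a library left out. With young sham as the young reference it was lost and the log2 fold change was 0.11 (adjusted p = 0.506). The call was also lost without old GFP replicates 1 and 4, the libraries with the most liver RNA of their group (-0.41, adjusted p = 0.0542). The same held with the liver covariate (-0.40, adjusted p = 0.0591) and without young GFP replicates 1 and 3 (-0.42, adjusted p = 0.0772). Tsc22d3 was at 174, 170, 215 and 175 CPM, without overlap with young GFP (log2 fold change -0.65, adjusted p = 0.0423), a call that was kept only without old GFP replicate 3 (adjusted p = 0.0398) when a library was left out. With the liver covariate the log2 fold change was -0.60 for Tsc22d3 (adjusted p = 0.215) and -2.49 for Mt2 (adjusted p = 0.115), and without old GFP replicates 1 and 4 it was -0.59 (adjusted p = 0.247) and -2.54 (adjusted p = 0.134). Without young GFP replicates 1 and 3 it was -0.80 for Tsc22d3 (adjusted p = 0.088) and -2.59 for Mt2 (adjusted p = 0.0689). In the fit without the sham libraries the adjusted p was 0.0662 for Tsc22d3 and 0.0705 for Mt2.

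Fkbp5 was at 37.1, 23, 41.4 and 39.3 CPM in old GFP mice (log2 fold change -0.97, adjusted p = 0.379) and Cebpd at 23.3, 13.6, 15 and 9.89 CPM (log2 fold change -1.28, SE 0.52, adjusted p = 0.168). Neither gene overlapped with young GFP, and with only these 2 groups in the fit the adjusted p was 0.0469 for Fkbp5 and 0.0117 for Cebpd. Zbtb16 was at 41.1, 44.8, 49.8 and 71.9 CPM and overlapped. In total 5 of the 10 genes did not overlap between old and young GFP mice, all lower in old GFP, where 15.6% of all genes did not overlap.

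The direction of the age difference depended on which young mice served as the reference. Against young sham in place of young GFP mice, old GFP mice had log2 fold changes of 0.63 for Mt2, 0.17 for Tsc22d3 and 0.11 for Nr3c1, none with an adjusted p under 0.05. Mt1 turned from -1.03 to 0.88 (adjusted p = 0.268). Fkbp5 turned from -0.97 to 0.15 (adjusted p = 0.915) and Zbtb16 from -0.65 to 0.18. For Cebpd the value stayed negative at -0.85.

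The glucocorticoid-induced list had a median log2 fold change of -0.38, and -0.33 without the 10 genes. Among the wider lists, 1 of 12 receptor regulators outside the 10 fell in old GFP mice: Fkbp4, a co-chaperone that promotes receptor transport, with a log2 fold change of -0.23 (adjusted p = 0.0124, lost without young GFP replicate 4). The clock repressor Nfil3 fell by 0.96 on the log2 scale (adjusted p = 0.0134). The Fkbp4 and Nfil3 calls were lost with young sham as the young reference and without young GFP replicates 1 and 3. The Fkbp4 call was also lost with the liver covariate, and the Nfil3 call without old GFP replicates 1 and 4. Of the 14 FOXO and atrophy genes, only Eda2r rose, a receptor of the TNF receptor family (log2 fold change 1.63, adjusted p = 0.000265). Tat, a liver enzyme induced by glucocorticoids, was the only gene of the glucocorticoid-induced list that rose (log2 fold change 7.27, SE 1.73, adjusted p = 0.0186). Its levels in old GFP mice were 16.6, 0.0555, 0.0 and 2.08 CPM, so the value rested on replicates 1 and 4, the liver-rich libraries, and with the liver marker level as a covariate it was -0.73. In edgeR 0 zinc, copper, iron, NRF2 or IL-6 and STAT3 genes outside the 10 were called in old against young GFP mice. At an unadjusted p under 0.05 these were 1 exporter, 3 importers, 2 iron genes, 1 NRF2 target and 3 IL-6 and STAT3 genes, and DESeq2 called 1, an iron gene. Of all 17803 genes tested, 3399 had an unadjusted p under 0.05 and DESeq2 called 1226.

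In oldest-old GFP mice Nr3c1 and Tsc22d3 were lower than in young GFP mice, and none of the 10 genes was called higher, where 14.9% of all genes tested were called. The median log2 fold change was -0.27 over the 10 genes and 0.03 over all genes.

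Nr3c1 was at 109, 122, 125 and 113 CPM in oldest-old GFP mice, below every young GFP library (log2 fold change -0.74, adjusted p = 3.92e-05). No other gene of the 10 was free of overlap in this comparison, where 18.4% of all genes did not overlap. The call was kept in all 8 fits with a library left out, and against young sham mice the log2 fold change was -0.23 (adjusted p = 0.076). Nr3c1 did not overlap between oldest-old and old GFP mice either (log2 fold change -0.34, adjusted p = 0.153 with edgeR and 0.0253 with DESeq2). Its group means were ordered 196 ± 10 CPM in young GFP, 149 ± 22 in old GFP, 140 ± 8.98 in old AAV-Kl, 138 ± 10.1 in young sham, 117 ± 7.39 in oldest-old GFP and 110 ± 7.59 in oldest-old AAV-Kl (SD, n = 4). The old GFP, old AAV-Kl and young sham means lay within their spread of each other, as did the oldest-old groups.

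Tsc22d3 was at 134, 166, 200 and 285 CPM in oldest-old GFP mice (log2 fold change -0.55, adjusted p = 0.0432), with replicate 4 inside the young GFP range. The call was kept in 3 of 8 fits with a library left out, and against young sham mice the log2 fold change was 0.27. It was lost with the liver covariate (-0.55, adjusted p = 0.051) and without young GFP replicates 1 and 3 (-0.71, adjusted p = 0.0627). The adjusted p was 0.125 with only these 2 groups in the fit and 0.0621 in the fit without the sham libraries. Mt1 was at 17, 18, 24.6 and 50.4 CPM (log2 fold change -0.62) and Mt2 at 0.404, 0.338, 1.2 and 2.55 CPM (log2 fold change -0.52). Replicate 4 was the highest library of its group for both. Neither was called, and both values turned with young sham as the reference, to 1.29 for Mt1 (adjusted p = 0.0662) and to 2.21 for Mt2 (adjusted p = 0.022), a call that Mt2 gained, with the higher level in the oldest-old GFP libraries.

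Fkbp5 was at 32.5, 34.8, 40.9 and 154 CPM, Zbtb16 at 40.9, 47.0, 45.0 and 102 CPM, and Cebpd at 22.4, 20.3, 27.7 and 111 CPM in oldest-old GFP mice. Slc39a14 was at 30.5 CPM in replicate 4 and at most 14.5 CPM in the other 3 libraries. The first 3 libraries were close to each other in each of these genes and replicate 4 stood apart. Without it, the log2 fold change against young GFP went to -0.96 for Fkbp5, -0.70 for Cebpd (0.27 with it), -0.90 for Zbtb16, -1.35 for Mt2 and 0.01 for Slc39a14 (0.44 with it), and none of these 5 was called with or without it. In the fit without this library the Tsc22d3 log2 fold change was -0.80 with an adjusted p of 0.00358.

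In edgeR none of the 10 genes was called between oldest-old and old GFP mice, where 0.00562% of all genes, a single gene, was called, 2136 genes had an unadjusted p under 0.05 and DESeq2 called 120. Of the 10 genes, 3 had an unadjusted p under 0.05, and DESeq2 called Nr3c1. Mt2 (log2 fold change 1.57) and Cebpd (1.55) had the largest values, which were 0.76 and 0.60 without oldest-old GFP replicate 4. Nr3c1 alone did not overlap, where 5.65% of all genes did not.

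Counts of the wider lists between oldest-old and young GFP mice are to be read against the 14.9% of all genes called. The shares of the zinc, iron, receptor regulator and glucocorticoid-induced lists rest on 1 to 3 genes each, and nothing about those lists is read from them. Of 13 zinc importers outside the 10, 3 fell and none rose: Slc39a6 by 0.51 on the log2 scale (adjusted p = 0.034), Slc39a3 by 0.30 (adjusted p = 0.0329) and Slc39a13 by 0.20 (adjusted p = 0.00859). Slc39a13 alone of these kept its call in all 8 fits with a library left out. Slc30a9, a mitochondrial zinc transporter, was the only one of 6 exporters outside the 10 that fell (log2 fold change -0.29, adjusted p = 0.0142). Of 12 iron genes, Tfrc, the transferrin receptor, fell by 0.83 (adjusted p = 0.0492) and Ireb2, an iron-sensing RNA-binding protein, by 0.22 (adjusted p = 0.0258). The Slc30a9 call was lost without young GFP replicate 4, the Ireb2 call without any of 3 libraries (oldest-old GFP replicate 4, young GFP replicates 1 and 4), and the Tfrc and Slc39a6 calls were kept in 2 and 3 of the 8 fits. With young sham as the young reference the Slc30a9, Slc39a3 and Slc39a6 calls were lost. Without young GFP replicates 1 and 3 the calls of Slc39a6, Slc39a3, Slc39a13, Slc30a9, Tfrc and Ireb2 were all lost.

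The receptor co-chaperones Fkbp4 (log2 fold change -0.24, adjusted p = 0.00453) and Stip1 (-0.29, adjusted p = 0.0196) fell, 2 of 12 receptor regulators outside the 10. Both calls were lost with young sham as the young reference, and the Stip1 call also without young GFP replicates 1 and 3. Of the 23 other glucocorticoid-induced genes 3 rose and none fell: the phosphatase gene Dusp1 (1.29, adjusted p = 0.0115), the cell cycle inhibitor Cdkn1a (1.12, adjusted p = 0.0404) and the atrophy ubiquitin ligase Fbxo32 (0.82, adjusted p = 0.0321). Fbxo32 was at 1170 CPM in oldest-old GFP replicate 4 and was not called without it, nor was Cdkn1a, which kept its call in 2 of the 8 fits with a library left out. The list's median log2 fold change was -0.11 with the 10 genes and -0.06 without them. Without young GFP replicates 1 and 3 the Dusp1, Cdkn1a and Fbxo32 calls were lost.

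Among 14 FOXO and atrophy genes 6 rose and none fell, with a median log2 fold change of 0.39. The largest were Eda2r (2.41, adjusted p = 2.06e-06) and the growth arrest gene Gadd45a (1.12, adjusted p = 0.031). Eda2r kept its call in all 8 fits with a library left out, whereas Gadd45a kept it in 2. Gadd45a, Cdkn1a, Fbxo32 and 1 other of the 6 were not called without oldest-old GFP replicate 4. Cdkn1a and Fbxo32 are also counted among the glucocorticoid-induced genes above. Among the 14 IL-6 and STAT3 response genes outside the 10, 4 rose and none fell: Il6 (2.57, adjusted p = 0.00531), Junb (2.55, adjusted p = 0.0101), Socs3, which inhibits STAT signalling (1.89, adjusted p = 0.00147), and Bcl3 (1.35, adjusted p = 0.035). The first 3 kept their calls in all 8 fits, and Bcl3 in 2, not without oldest-old GFP replicate 4. With young sham as the young reference the Socs3 and Bcl3 calls were lost. Without young GFP replicates 1 and 3 the Il6 and Bcl3 calls were lost. In that fit, of the 6 FOXO and atrophy genes that rose, only Eda2r kept its call. The macrophage, endothelial, neutrophil and erythroid markers were higher and the fibroblast markers lower in oldest-old GFP mice, without overlap, and their part was not tested. Il6 stayed at or under 0.48 CPM. Of the clock genes only Nfil3 fell, by 1.33 on the log2 scale (adjusted p = 0.000514). In edgeR 0 of 10 copper genes and 0 of 13 NRF2 targets were called (1 and 5 at an unadjusted p under 0.05), and DESeq2 called 1 of each. Of all 17803 genes tested, 5310 had an unadjusted p under 0.05 and DESeq2 called 3100.

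The comparisons with Klotho ask whether AAV-Kl mice differed from GFP mice of their age. None of the 10 genes was called in either age group. In old mice edgeR called 0 genes (0.0% of those tested), 383 had an unadjusted p under 0.05 and DESeq2 called 0. In oldest-old mice edgeR called 0.0112%, or 2 genes, 1438 had an unadjusted p under 0.05 and DESeq2 called 25. In both ages every member overlapped between AAV-Kl and GFP, where 1.68% (old) and 2.65% (oldest-old) of all genes did not. At an unadjusted p under 0.05 there were 0 of the 10 genes in either age, and DESeq2 called 0 of them.

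Mt1 was at 17.6, 28.6, 7.29 and 22.3 CPM in old AAV-Kl mice (log2 fold change -0.14, 95% interval -1.01 to 0.73) and Mt2 at 0.583, 0.937, 0.16 and 0.779 CPM (0.69, interval -0.46 to 1.85). All intervals given here and below are a normal approximation from the SE, not taken from the quasi-likelihood test, and can be too narrow. Even so they are wide, and changes of more than 1 log2 unit in Mt2 lie inside them. Fkbp5 was at 48.1, 132, 7.03 and 57.9 CPM in old AAV-Kl mice (0.80, interval -0.32 to 1.92). Replicate 2 was the highest library of the group for Mt1, Mt2, Fkbp5, Zbtb16 and Cebpd, and replicate 3 was the lowest for 8 of the 10 genes. Zbtb16 was at 98.5, 104, 38.0 and 45.7 CPM and Cebpd at 21.3, 53.7, 8.42 and 16.5 CPM. Tsc22d3 at 235, 209, 142 and 184 CPM and Nr3c1 at 143, 133, 133 and 152 CPM varied less, and their intervals were -0.28 to 0.42 and -0.25 to 0.09.

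In oldest-old AAV-Kl mice Mt1 was at 15.1, 18.9, 31.0 and 24 CPM (log2 fold change -0.31, interval -1.17 to 0.55) and Mt2 at 0.545, 0.46, 0.978 and 0.466 CPM (-0.89, interval -1.99 to 0.21). Fkbp5 was at 21.1, 30.2, 49.1 and 19.6 CPM (-1.13, adjusted p = 0.639), and without oldest-old GFP replicate 4 its value was -0.27. Zbtb16 was at 39.1, 46.3, 46.8 and 34.5 CPM, Cebpd at 13.6, 24.5, 32.1 and 29.2 CPM, Tsc22d3 at 182, 207, 261 and 227 CPM and Nr3c1 at 108, 103, 108 and 120 CPM. Each of these 4 genes overlapped with oldest-old GFP. Slc39a14 reached 30.5 CPM in oldest-old AAV-Kl replicate 3 and 18 in replicate 2, above the 14.5 CPM that no other library exceeded apart from oldest-old GFP replicate 4.

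The difference in the Klotho response between the ages was tested as an interaction. In edgeR none of the 10 genes was called, 0.00562% of all genes were, 1026 had an unadjusted p under 0.05 and DESeq2 called 1. The interaction was -1.93 for Fkbp5 (interval -3.52 to -0.34, adjusted p = 0.834), -1.58 for Mt2 and -1.56 for Cebpd, and without oldest-old GFP replicate 4 it was -1.06, -0.77 and -0.60. Fkbp5 and Cebpd were the 2 genes of the 10 with an unadjusted p under 0.05, and DESeq2 called 0 of them. No gene of the wider lists was called by edgeR in the Klotho comparisons, in their interaction or between oldest-old and old GFP mice.

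Across mice the metallothioneins and most glucocorticoid targets were high in the same libraries. Over the 24 libraries Pearson's r of log2 CPM was 0.90 between Mt1 and Mt2. Between Mt1 and the glucocorticoid targets it was 0.73 for Fkbp5, 0.82 for Tsc22d3, 0.68 for Cebpd and 0.52 for Zbtb16. After the group means were removed these 5 values were 0.85, 0.77, 0.71, 0.83 and 0.46. The r between Mt1 and Slc39a14 was 0.42 (0.48 without group means). In contrast r was -0.03 between Mt1 and Mtf1, -0.11 between Mt1 and Slc30a1 and 0.33 between Mt1 and Nr3c1 (0.18 without group means). Libraries share the scaling and their group, so these values are given as a description with no p.

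**Figure D4:**
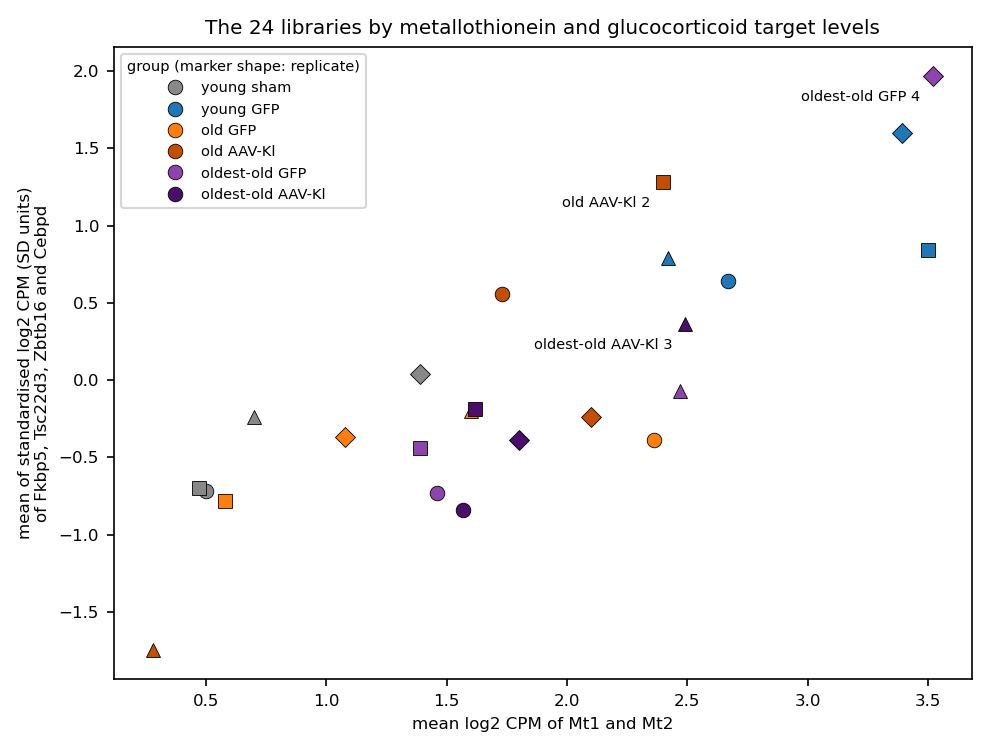
The 24 libraries by the mean log2 CPM of Mt1 and Mt2 (horizontal axis) and the mean of the standardised log2 CPM of Fkbp5, Tsc22d3, Zbtb16 and Cebpd (vertical axis, SD units), coloured by group with marker shape for the replicate. The libraries spread along the diagonal (r = 0.84), from old AAV-Kl replicate 3 at 0.28 and -1.75 to oldest-old GFP replicate 4 at 3.52 and 1.97.

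Oldest-old GFP replicate 4 and oldest-old AAV-Kl replicate 3 were each the highest library of their group for the same 8 of the 10 genes, all but Mtf1 and Nr3c1. These libraries also had the lowest mean log2 CPM of the 6 fibroblast markers (4.91 and 4.94, against 5.83 to 7.56 in the other 22), and replicate 4 of oldest-old GFP the lowest of the fibre markers (11.53) and the highest of the erythroid markers (5.69). The part of these differences in the levels was not tested. Among the young mice, sham replicate 4 was the highest of its group for 7 genes and had the highest keratinocyte marker level of the sham libraries (3.86).

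The 5 genes whose log2 CPM followed the mean of Mt1 and Mt2 most closely over the 24 libraries were Gm11730 (r = 0.88), Gm45774 (0.86), the antisense gene that overlaps Mt2, Tsc22d3 (0.86), Csnk1d (0.83) and Vmp1 (0.81). Gm11730 lay between 0.0599 and 1.11 CPM and Gm45774 between 0.0527 and 0.941 CPM, in counts that leave out reads on 2 genes. For the mean of the 4 glucocorticoid targets they were Fibin (0.94), Gm11827 (0.92), 4930481A15Rik (0.92), Gm47644 (0.90) and Plin4 (0.90), a lipid droplet coat gene.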

How the data were processed

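RNA-seq of gastrocnemius muscle comprised 24 libraries from mice of 6 groups. Per the submitters' processing notes and the study's methods, the authors aligned reads to GRCm38 with STAR, and they deposited the read counts per gene, without normalization, in 3 columns (without regard to strand and for each strand). The first strand column held 49.8% to 50.4% of reads, so counts without regard to strand were used. Reads on no single gene (23% to 25.3%) were left out of library sizes. Of 55385 gene IDs, 54487 matched the annotation used here (GENCODE M21) with their version, 657 without it and 241 not at all. Groups came from the sample labels. The study describes 4 separate mice for each GFP and AAV-Kl group. For young sham it does not, so p-values there measure only the spread between samples, which may be technical.

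All 24 libraries were fitted together in edgeR 4.0.16 (R 4.3.3) by the quasi-likelihood method, after TMM scaling and filterByExpr, and p-values were Benjamini-Hochberg adjusted over 17803 genes (threshold 0.05). The steps were tested on simulated data. Log2 CPM used a prior count of 2. The study used DESeq2, run here (1.42.0) as an alternative. Other alternatives were DESeq2 size factors, no filter, a replicate block, the liver marker level as a covariate, subsets of groups or libraries, young sham as reference, and each library left out. Summing both strand columns was added after the Mt2 overlap was seen.

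The members and gene lists were chosen with earlier results of these data known. All members were named, with, from each list and comparison, at most the 4 genes of largest change with an adjusted p under 0.05, and the 5 genes most correlated with each mean. Libraries with the same replicate number were not paired: their deviations from group means correlated between -0.533 and 0.201, over 0.1 in 4 of 24 pairs. Depth (36415886 to 59733985 reads on genes per library) bounds counting error only. Sequences are from RefSeq (GRCm38.p6), with promoters for 6 of the 10 genes.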

Additional observations from a re-analysis of the deposited data

Results flagged for a closer look

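Within groups of 4 libraries, a library was noted when its gap to the nearest other library took up more of the group's range than Dixon's critical value at 95% allows. This held for 7 of the 60 gene and group combinations, where chance gives about 3. Oldest-old GFP replicate 4 was far above the rest of its group in 4 genes, at 30.5 CPM for Slc39a14 (next 14.5), 154 CPM for Fkbp5 (next 40.9), 102 CPM for Zbtb16 (next 47.0) and 111 CPM for Cebpd (next 27.7). Mt2 was at 0.978 CPM in oldest-old AAV-Kl replicate 3 (next 0.545). Tsc22d3 was at 215 CPM in old GFP replicate 3 (next 175). Mtf1 was at 28.2 CPM in oldest-old GFP replicate 2 (next 25.5), a narrow range in which all 24 libraries lay between 25 and 28.9 CPM.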

How the results depend on the processing

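Signs were kept for every called difference of the 10 genes under all alternatives run, except with young sham as the young reference, where old mice had log2 fold changes of 0.63 for Mt2, 0.17 for Tsc22d3 and 0.11 for Nr3c1, and oldest-old mice 0.27 for Tsc22d3. That reference also turned the uncalled Mt1 to 0.88 in old and 1.29 in oldest-old mice, and Mt2 in oldest-old mice to 2.21, a gained call (adjusted p = 0.022). Fkbp5 and Zbtb16, also uncalled, turned to 0.15 and 0.18 in old and to 1.06 and 0.37 in oldest-old mice. In the wider lists the young sham reference ended the calls of Fkbp4, Nfil3 and Tat in old mice. In oldest-old mice it ended those of Fkbp4, Stip1, Slc30a9, Slc39a3, Slc39a6, Socs3 and Bcl3. Tat in old GFP mice turned to -0.73 with the liver covariate. Causes of the other changes were not tested.

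Between young GFP and young sham mice, 84 genes were called, against 290 with DESeq2, 2 with the liver covariate, 174 with only these groups, 27 without young GFP 1 and 3, and 1 (without young sham 2) to 114 (without young GFP 3) with a library left out. The share higher was 59.5%, and 71.8% with DESeq2 size factors. For old against young GFP the 837 calls became 553 without a filter, 274 with the liver covariate, 1275 with only these groups, 143 without young GFP 1 and 3, 268 without old GFP 1 and 4, and 366 (without old GFP 1) to 679 with a library left out. For oldest-old against young GFP the 2649 calls became 1755 without a filter, 1249 with only these groups, 874 without young GFP 1 and 3, and 1674 (without young GFP 4) to 2755 with a library left out.

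For oldest-old against old GFP the single call became 120 with DESeq2, 0 without a filter, with the replicate block, with the liver covariate, without sham, with only these groups or without old GFP 1 and 4, and 0 to 3 with a library left out. For Klotho in oldest-old mice the 2 calls became 25 with DESeq2, 0 with only these groups and 1 to 4 with a library left out, and in old mice there were 0 throughout. The interaction's single call became 0 with the replicate block, without sham or with only these groups, 2 with the liver covariate and 0 to 1 with a library left out.

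The replicate block gave 69 calls between the young groups, where the adjusted p was 0.0671 for Mt2 and 0.0517 for Tsc22d3, and 0.0689 for Mt2 in old against young GFP mice. It ended no other call of the 10 genes. The Mt2 values rest on 8 to 164 reads per library, and on 152 to 3462 at the same depth with both strand columns summed.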
